A study of Rattus norvegicus with 108 samples.

Results

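Ionotropic glutamate receptors of the AMPA and NMDA classes were examined through 8 genes: Gria1, Gria2, Gria3 and Gria4, which encode the pore-forming subunits of AMPA receptors, and Grin1, Grin2a, Grin2b and Grin3a, which encode subunits of NMDA receptors. They were chosen by symbol, with earlier results of these data known, and all 8 are among the 19127 genes in the dorsal and ventral dentate gyrus count tables. The dentate gyrus is the entry station of the hippocampus, and the study asked how its cells respond to a long course of an antidepressant. The rats were male Long-Evans, bred in the authors' facility from animals purchased from Charles River, and 2 months old at the start. They drank fluoxetine (FT), a serotonin reuptake inhibitor, at 18 mg per kg per day for 6 weeks, or water alone (Sham). No allele or transgene was involved. Each replicate pooled tissue of 3 animals, so the spread between replicates is a spread between pools. The groups were dorDG FT (4 replicates, numbered 1, 2, 4 and 5), dorDG Sham (5), venDG FT (5) and venDG Sham (5). The 19 replicates came from 27 droplet reactions.

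AMPA receptors carry most of the fast excitatory current at central synapses. They are tetramers, and the Gria2 subunit, once its messenger has been edited, keeps calcium out of the channel. NMDA receptors need the Grin1 subunit together with Grin2 or Grin3 subunits, open only when glutamate binding coincides with depolarization, and let calcium in to start synaptic plasticity. Grin3a lowers the calcium current and magnesium block of receptors that hold it. In the dentate gyrus, granule cells receive glutamate from the entorhinal cortex, while oligodendrocyte precursor cells and astrocytes are known to carry AMPA receptors too.

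Promoters of some subunits are shown for reference, and any bearing of theirs on the comparisons that follow was not tested. RefSeq sequence of the rat assembly GRCr8 was at hand for 3 of the 8, Gria4, Grin1 and Grin3a. The 250 bases before the annotated start of each gene read as follows, 5′ to 3′ along the gene, with capitals marking CAGCTG, an E-box that reads the same on both strands. The motif was chosen after the sequences had been seen. The windows lie on the minus strand at chr8:10319882-10320131 (Gria4), chr3:28528755-28529004 (Grin1) and chr5:69001559-69001808 (Grin3a).
Gria4: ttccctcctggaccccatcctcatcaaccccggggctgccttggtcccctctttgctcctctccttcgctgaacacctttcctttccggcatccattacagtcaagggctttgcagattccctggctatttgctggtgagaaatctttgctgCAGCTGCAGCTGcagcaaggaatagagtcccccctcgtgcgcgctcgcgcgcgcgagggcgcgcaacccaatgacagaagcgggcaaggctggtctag
Grin1: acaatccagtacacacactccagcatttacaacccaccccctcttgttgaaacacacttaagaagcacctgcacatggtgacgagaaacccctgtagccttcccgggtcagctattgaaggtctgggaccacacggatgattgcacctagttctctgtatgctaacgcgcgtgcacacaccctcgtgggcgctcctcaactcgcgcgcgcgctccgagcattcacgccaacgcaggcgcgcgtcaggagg
Grin3a: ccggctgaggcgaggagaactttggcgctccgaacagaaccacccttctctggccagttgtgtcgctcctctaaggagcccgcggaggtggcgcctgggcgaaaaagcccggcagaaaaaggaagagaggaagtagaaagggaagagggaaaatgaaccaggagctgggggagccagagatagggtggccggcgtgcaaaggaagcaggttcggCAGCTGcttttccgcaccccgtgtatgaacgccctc
CAGCTG occurred 2 times in the Gria4 window, starting 98 and 92 bases before the gene's start, and 1 time in the Grin3a window, 36 bases before it. It was not in the Grin1 window. Among 33469 RefSeq promoters of the same length, 11.97% held it. The GC box core GGGCGG, read on both strands, was in none of the 3 windows and in 30.47% of all promoters. G and C made up 59.6%, 57.6% and 60.4% of the Gria4, Grin1 and Grin3a windows. These matches describe letters, not bound sites.

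The tables hold unique molecular identifiers (UMIs), counts of captured transcripts, for 1289 dorDG and 2058 venDG cells. A replicate summed to 583739 to 885307 UMIs in the FT group of dorDG and 490584 to 1105869 in its Sham group, and to 657107 to 1523537 and 220162 to 1100761 in venDG, over 42 to 384 cells, and 9 cell barcodes were shared between reactions. Levels below are UMIs per 10000 UMIs of the same cells. Because cells of a replicate are not independent, groups were compared over replicate sums. The labels speak of nuclei and the study's methods of whole cells and nuclei, and neither says which reaction held which. A cell was called ribosome-poor when under 2% of its UMIs came from 120 cytosolic ribosomal protein genes, none of them a member, a boundary set after the distribution had been seen. By this rule 512 of 1289 dorDG cells (39.7%) and 714 of 2058 venDG cells (34.7%) were ribosome-poor, and 177 cells lay within 0.5 points of the boundary.

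The dorDG cell types are the 12 names of the authors' annotation, and several did not match their markers. Snap25 and Syt1, general markers of neurons, were highest in ExcitNeuron (11.7 and 21.0 UMIs per 10000), InhibNeuron (7.92 and 20.4) and Granule (4.48 and 11.1), and at most 2.41 and 5.15 in the other types. InhibNeuron cells, however, held 0.30 of Gad1 and 0.22 of Gad2, the enzymes that make GABA, and none of the GABA transporter Slc32a1, beside 3.21 of the glutamate transporter Slc17a7. Prox1, the granule cell factor, was lower in Granule (0.90) than in InhibNeuron (1.88). Mossy cells showed 0 of the mossy cell markers Calb2, Csf2rb, Drd2, Glipr1 and Nmb, but 15.9 of the endothelial receptor Flt1. AstroSub1 (Gfap 31.9), OPC (Pdgfra 5.15) and Microglia1 (C1qa 30.3) held their defining genes. The names are therefore used as labels, with InhibNeuron, ExcitNeuron and Granule as the 3 neuronal types and 7 types as glial (AstroSub1, BergGlia, OPC, Oligodend1, Oligodend2, Microglia1 and Microglia2). Since the types were defined on the expression of these cells, differences between types are given without a test.

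Gria1, a subunit that moves into synapses during potentiation, was highest in the 3 neuronal types. Its median over replicates was 30.6 UMIs per 10000 in ExcitNeuron (14.1 to 43.7, n = 4 replicates), 20.7 in InhibNeuron (14.8 to 29.9, n = 6) and 13.1 in Granule (3.93 to 34.2, n = 9). It was 4.83 in Oligodend1, 4.25 in AstroSub1, 3.17 in OPC and 1.29 in Microglia1 (0.343 to 6.90). Gria2, the subunit that sets calcium permeability, followed another order among glia. Its medians were 28.3 in ExcitNeuron (14.0 to 38.8), 26.3 in InhibNeuron (21.7 to 36.8) and 12 in Granule (6.54 to 23.6), and then 10.4 in AstroSub1 (6.63 to 17.6) and 9.39 in OPC (5.17 to 11.3). Granule, AstroSub1 and OPC overlapped in Gria2, whereas Oligodend1 (median 3.14, 1.40 to 3.98) lay below every OPC replicate. Microglia1 and Microglia2 had medians of 1.31 and 1.28.

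Gria3 stood at 9.11 in ExcitNeuron (6.48 to 10.2), 6.74 in InhibNeuron (5.01 to 9.23), 3.29 in Granule (1.31 to 8.35) and 3.08 in OPC (1.79 to 4.06), with 1.19 in AstroSub1 and 0.378 in Microglia1. Gria4, which gives channels with fast kinetics, was not highest in the 3 neuronal types alone. OPC came second for it, at 3.16 (1.90 to 7.31), between InhibNeuron at 5.33 (2.83 to 6.91) and ExcitNeuron at 2.49 (1.77 to 4.54). Granule had a median of 2.42, with 1 replicate, dorDG Sham 1, at 26.1. AstroSub1 held 0.582.

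Grin1, the subunit that NMDA receptors cannot do without, was low outside the neuronal types. It reached 5.22 in ExcitNeuron (3.54 to 5.97), 5.06 in InhibNeuron (3.89 to 6.43) and 2.28 in Granule (0.523 to 4.76). AstroSub1 had 0.526, OPC 0.465, Oligodend1 0.313 and Microglia1 0.114, and the replicate median was 0 in Microglia2 and BergGlia. Grin2a, which speeds receptor closing in the mature brain, stood at 12.7, 9.52 and 4.80 in ExcitNeuron, InhibNeuron and Granule, and at 2.14 in OPC (0.633 to 5.80). Grin2b, the subunit that prevails early in life, stood at 11.3, 9.78 and 3.71, and was higher in AstroSub1 (2.94, 1.09 to 5.34) than in OPC (1.05) by the medians. Grin3a departed from the other 7: its highest median was in OPC, at 1.21 (0 to 1.33), followed by 0.735 in Granule, 0.727 in InhibNeuron and 0.654 in ExcitNeuron, all with overlapping replicates. No Grin3a UMI was found in 43 BergGlia cells, which allows a share of cells with a UMI of up to 6.98% (3 counts of 43, counting error only). For each of the 8 subunits, every pair of types next to each other in the order of medians had overlapping replicate ranges, so the order holds only across wider steps.

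**Figure D1:**
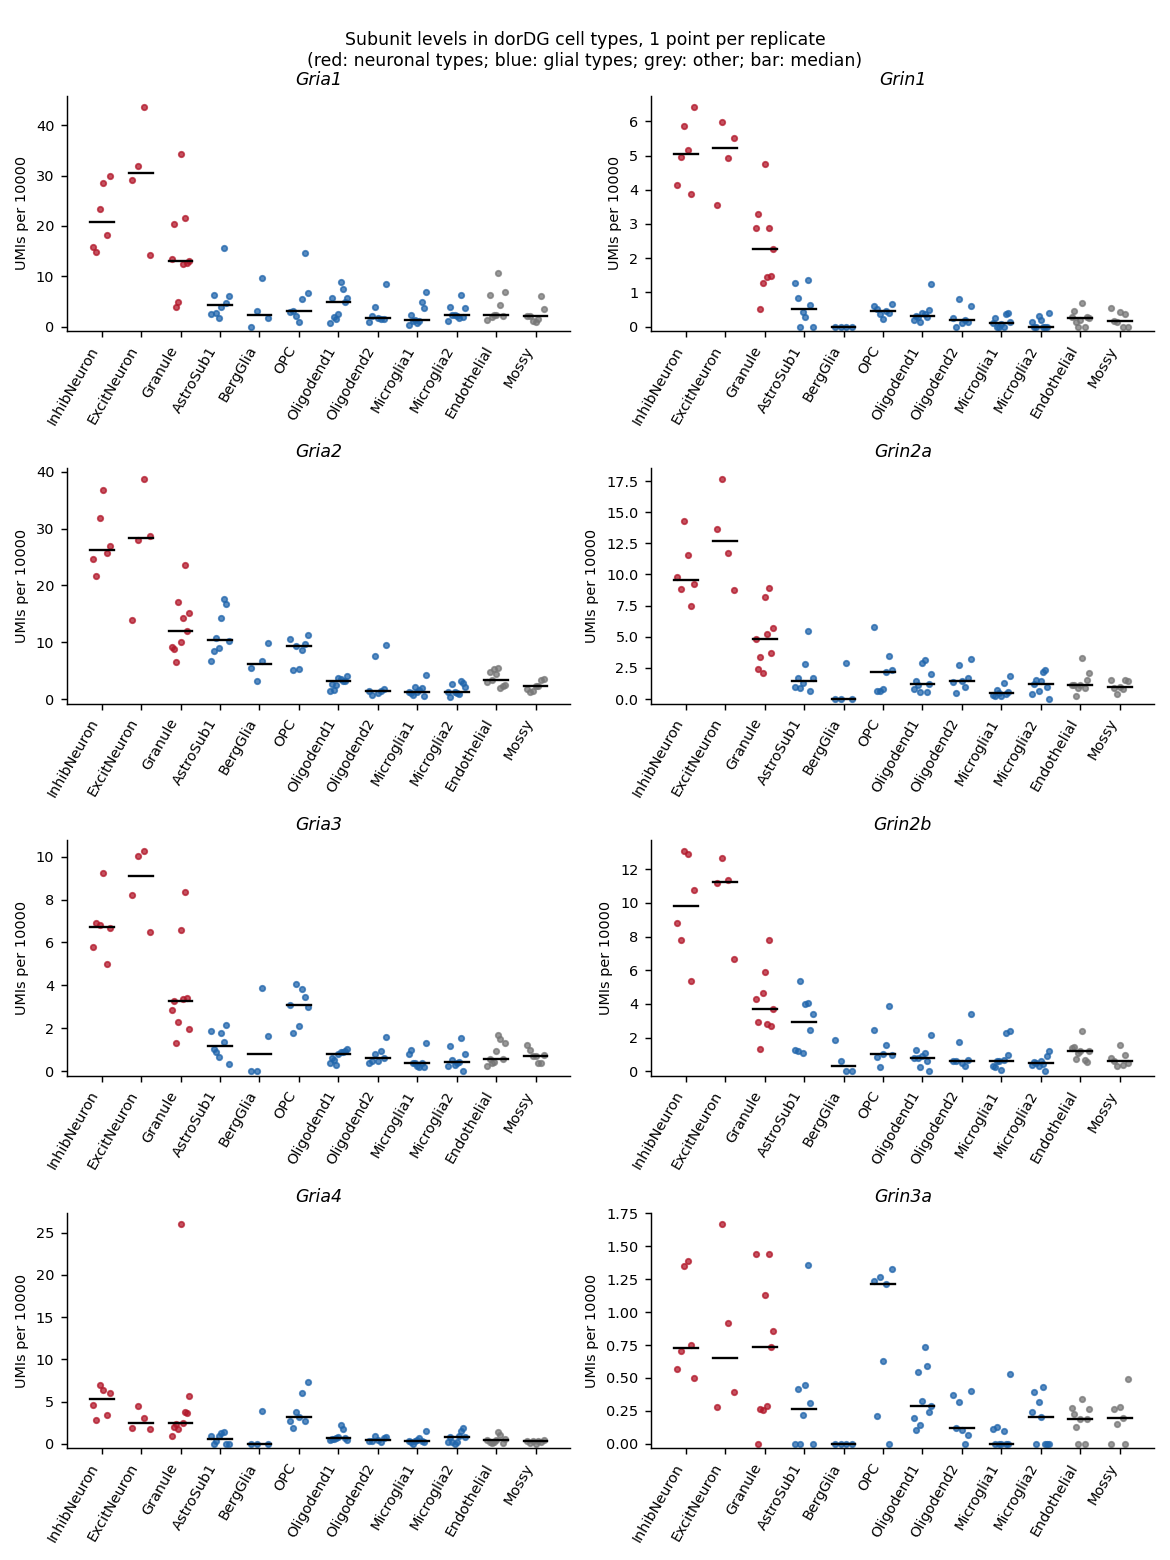
Level of each subunit (vertical axes, UMIs per 10000) in the 12 dorDG types, with 1 point per replicate of at least 5 cells, a bar at the median, neuronal types in red, glial types in blue and others in grey. The 3 neuronal types hold the highest medians for 6 subunits, OPC is second for Gria4 and first for Grin3a, and a single Granule replicate stands at 26.1 for Gria4.

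Within each dorDG replicate, the 3 neuronal types summed were set against the 7 glial types summed. The neuronal sum was higher in 9 of 9 replicates for 7 subunits and in 8 of 9 for Grin3a. The contrast was widest for Grin1, with a neuronal median of 4.12 against 0.304 UMIs per 10000 and a ratio of 6.60 to 20.6 (median 12.5). The ratio for Gria2 was 2.72 to 6.14 (medians 21.7 and 4.80), for Gria1 3.02 to 10.6 (15.9 and 3.90), and for Grin2b 2.32 to 11.3 (7.49 and 1.08). Gria3, Grin2a and Gria4 had median ratios of 5.01, 5.17 and 3.61, and Grin3a one of 1.68 (0.818 to 3.71). Neuronal types were mostly ribosome-poor (79.6% to 80.0% of their cells) and glial types less so (9.35% in Microglia1 to 62.7% in AstroSub1). Among ribosome-poor cells alone (8 replicates) the median ratio was 1.75 for Gria2 (neuronal sum higher in 7 of 8), 2.67 for Gria1 (6 of 8), 3.73 for Grin1 (7 of 8) and 0.735 for Grin3a (2 of 8). The glial sum was the higher in FT 4 for Gria1, Gria2 and Grin1 and in Sham 2 for Gria1. Among the other cells (6 replicates) the median ratio was 6.00 for Gria2, 5.27 for Gria1 and 16.1 for Grin1, with the neuronal sum higher in 6 of 6 for each.

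Detection per cell followed the same order. Cells were thinned to 1000 UMIs to equalize depth, which kept 279 of 321 neuronal, 631 of 716 glial and 104 of 107 Microglia1 cells. A Gria1 UMI was then found in 77.8% of neuronal cells (95% exact binomial interval 72.4% to 82.5%), 26.5% of glial cells (23.1% to 30.1%) and 17.3% of Microglia1 cells (10.6% to 26.0%). Unthinned, the shares were 90.3%, 55.7% and 57.0% at median depths of 4671, 4010 and 6669 UMIs. Grin1 was found in 34.1% of thinned neuronal cells (28.5% to 39.9%), 3.01% of glial cells (1.82% to 4.66%) and 0.962% of Microglia1 cells (0.0243% to 5.24%), against 72.3%, 9.92% and 6.54% unthinned. Microglia, which are among the glial types, are given for comparison, and the glial share of Grin1 lay within the wide microglial interval. The myelin gene Mbp stood at 31.7 to 77.9 UMIs per 10000 in the types that are not oligodendrocytes, against 141 and 134 in the 2 oligodendrocyte types. The part of free RNA in the low glial levels was not tested.

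The mix of subunits also varied between types. UMIs are tags from the end of a transcript, and how well each gene's end is captured is unknown, so shares are compared between types and not between subunits. Of AMPA subunit UMIs, Gria2 made up 63.6% in AstroSub1 (49.1% to 73.5% over 8 replicates), 45.9% in InhibNeuron, 42.4% in OPC, 40.4% in ExcitNeuron and 34.9% in Granule. Gria1 made up 25.8% in AstroSub1 and 21.8% in OPC, against 35.2%, 42.3% and 40.9% in InhibNeuron, ExcitNeuron and Granule. Gria4 held 19.7% of the AMPA UMIs of OPC, 8.45% in InhibNeuron and 4.09% in ExcitNeuron, and 14.2% in Granule, where the replicate median was 7.44%. Of the 12 types, OPC had the highest shares of Gria3 and Gria4 (16.1% and 19.7%), and AstroSub1 that of Gria2.

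NMDA subunits were split alike in the 3 neuronal types, with Grin1 at 18.8% to 19.4%, Grin2a at 39.8% to 42.9% and Grin2b at 32.8% to 37.8% of their UMIs. The glial mixes rest on far fewer counts. In AstroSub1 (167 UMIs) Grin2b took 51.5% and Grin1 9.58%. In OPC (256 UMIs) Grin3a took 19.5%, with replicates from 0% to 50%, and Grin1 took 8.98%.

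**Figure D2:**
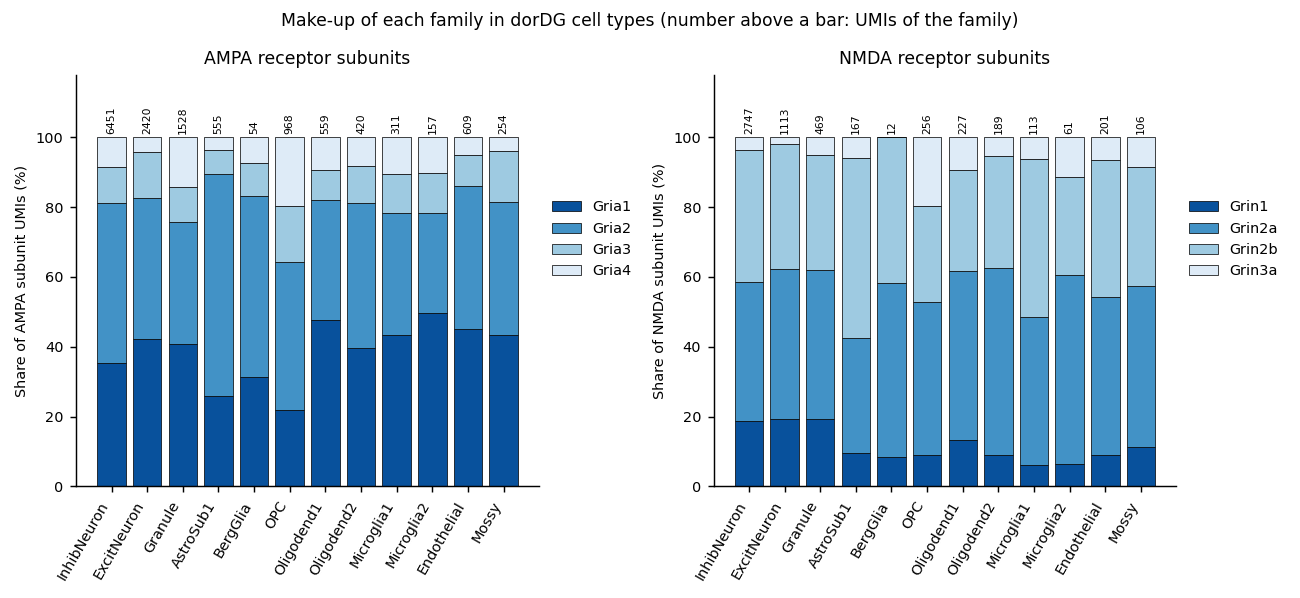
Share of the UMIs of each family (vertical axes, %) held by each subunit in the dorDG types, with the number of UMIs above each bar. Gria2 takes 63.6% of the AMPA UMIs of AstroSub1, Gria4 19.7% of those of OPC, and Grin3a 19.5% of the 256 NMDA UMIs of OPC.

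Because venDG counts came without type names, its cells were clustered, and a cluster was given a name ending in -like only from a list of markers. Of 26 clusters, 18 (1463 cells) were named and 8 (595 cells) were not, and no doublet caller was run. The excitatory-like class (226 cells) held 14.3 UMIs per 10000 of Gria1 (6.65 to 21.6 over 9 replicates), 21.8 of Gria2 (13.6 to 28.9), 4.65 of Grin1 and 7.58 of Grin2b. Astrocyte-like cells (243) held 8.40 of Gria2 (4.70 to 13.9) but 1.84 of Gria1, and OPC-like cells (186) held 8.39 of Gria2 (7.70 to 11), 3.72 of Gria4 (2.59 to 6.02) and 1.07 of Grin3a (0.542 to 1.72). Microglia-like (381) and oligodendrocyte-like cells (321) had 1.15 and 1.44 of Gria2. Some named clusters were led by stress and immune genes, among them Il1b, Ccl2 and Ccl3 in a microglia-like cluster. An unnamed cluster of 159 cells, 98.1% of them ribosome-poor, held 17.6 of Syt1, so neuronal cells lie outside the named classes too.

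The genes whose levels over the 12 dorDG types were most like those of each subunit were sought among 8332 genes by Pearson's r of log2 levels, which is a description over types that share libraries. Gria1 was closest to Shisa6 (r = 0.991), which encodes an AMPA receptor auxiliary subunit, then to Grin1 (0.984) and the potassium channel gene Kcnj3 (0.979). Grin1 and Grin2a were closest to each other (0.989), followed by Chrd (0.984 and 0.985). Gria2 was closest to the adhesion gene Nrcam (0.985), Tnik (0.978) and Rims2 (0.973), and Gria3 to Lrp1b.1 (0.981), the glutamate receptor gene Grm7 (0.981) and Slc24a3 (0.979). Grin2b was closest to the glutamate receptor gene Grm5 (0.977), Kcnh1 (0.976) and Car12 (0.976). The most like genes were less close for Gria4 (Bicd1 0.941, Thsd7a 0.939, the sodium channel gene Scn1a 0.933) and Grin3a (Lppr1 0.965, Arhgap20 0.962, Vamp7 0.961). Between members, r ran from 0.641 (Gria2 with Grin3a) to 0.989.

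All 8 subunits were higher in ribosome-poor than in other cells, in both regions. In dorDG, Gria1 in ribosome-poor cells was 14.1, 29.5, 6.16 and 6.17 UMIs per 10000 in the FT replicates and 21.3, 16.7, 27.8, 20.6 and 25.4 in the Sham replicates. In the other cells it was 2.19, 3.59, 2.58 and 2.48 in FT and 1.43, 1.91, 5.83, 4.91 and 6.75 in Sham. The ribosome-poor sum was the higher in 9 of 9 replicates, although across replicates FT 4 and FT 5 came below the highest ribosome-rich value. Grin1 ran from 1.31 to 6.52 in ribosome-poor sums (median 4.24) and from 0.149 to 1.23 in the others (0.451), with no overlap. For 6 of the 8 members in dorDG and 7 in venDG the ranges did not overlap. The share of all genes without overlap was not counted for this split.

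In the edgeR quasi-likelihood fit across all genes with Benjamini-Hochberg adjustment, the log2 difference of ribosome-poor from other dorDG cells was 2.51 ± 0.24 (SE) for Grin1, 2.40 ± 0.20 for Grin2b, 2.15 ± 0.24 for Grin2a, 2.05 ± 0.25 for Gria1, 2.03 ± 0.23 for Gria2, 1.87 ± 0.20 for Gria3, 1.54 ± 0.19 for Gria4 and 0.98 ± 0.21 for Grin3a. Adjusted p by edgeR ran from 1.64e-09 to 0.000294, and all 8 were called higher, beside 46.2% of the 4384 genes tested. A gene is called here when its adjusted p is 0.2 or lower and its log2 fold change is 0.32 or more in size. In venDG the differences were 2.65 ± 0.17 for Grin1, 2.57 ± 0.19 for Grin2b, 2.13 ± 0.17 for Grin2a, 2.04 ± 0.18 for Gria1, 1.80 ± 0.17 for Gria4, 1.70 ± 0.16 for Gria2, 1.62 ± 0.15 for Gria3 and 1.04 ± 0.24 for Grin3a. Again 8 of 8 were called higher, beside 42.9% of the 4354 genes tested. Grin1 thus showed the largest and Grin3a the smallest difference in each region. The median of all genes was 0.17 in dorDG and 0.08 in venDG with this scaling, and -0.02 and -0.05 with DESeq2's size factors, which moves each difference by that much and turns none.

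Since the neuronal types were mostly ribosome-poor, the contrast was repeated within types. In the neuronal types summed (5 replicates) it was smaller: 1.25 ± 0.32 for Grin2a, 1.11 ± 0.33 for Grin2b, 0.94 ± 0.34 for Gria1, 0.70 ± 0.32 for Gria3, 0.65 ± 0.32 for Grin1 and 0.54 ± 0.32 for Gria4, all called, and 0.43 ± 0.34 for Gria2 (adjusted p = 0.313 by edgeR). Of the genes tested 29.1% were called higher, and without dorDG FT 2 only 2 subunits were called. In the glial types summed (9 replicates) all 8 were called higher, at 2.17 ± 0.34 for Grin1, 1.75 ± 0.25 for Grin2b, 1.70 ± 0.20 for Gria2, 1.63 ± 0.26 for Grin2a, 1.31 ± 0.30 for Gria1, 1.21 ± 0.25 for Gria3, 0.76 ± 0.28 for Gria4 and 0.73 ± 0.37 for Grin3a, beside 40.3% of genes. Oligodend1 (4 replicates) gave 6 of 7 called, with Grin1 at 2.75 ± 0.84 and Gria3 at 2.70 ± 0.71, beside 17.6% of genes. AstroSub1 (6 replicates) gave 5 of 6, from 0.70 ± 0.36 for Gria2 to 3.01 ± 1.14 for Grin1, beside 13% of genes, and Gria1 was 0.74 ± 0.46 (adjusted p = 0.253 by edgeR). The AstroSub1 calls fell to 0 without dorDG FT 2, 1 without FT 5, 2 without FT 1 and 3 without Sham 4.

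**Figure D3:**
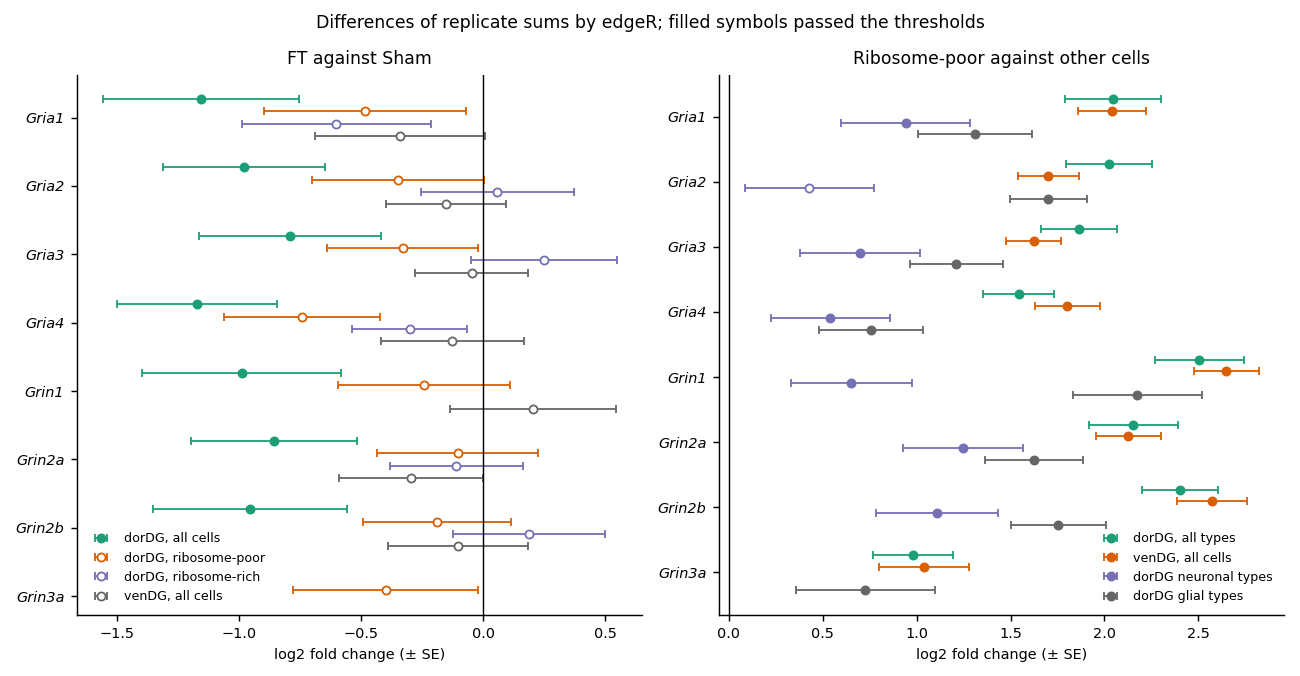
Log2 fold change with its SE (horizontal axes) of the 8 subunits in the edgeR fits of replicate sums, for ribosome-poor against other cells and for FT against Sham, with filled symbols where both thresholds were passed. All 8 subunits lie above 0 for ribosome-poor cells in both regions, and the FT differences reach the thresholds in all dorDG cells, for 7 subunits.

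The reactions of a replicate differed as much as the classes of cells. In all 8 replicates with 2 reactions, the second by name was the higher for each of the 8 subunits. The first reactions held 4.08% to 15.5% ribosome-poor cells, 4.24 to 9.69 UMIs per 10000 of the 4 AMPA subunits summed and 1.47 to 4.46 of the 4 NMDA subunits. The second held 78.3% to 95.9% ribosome-poor cells, with 20.8 to 59.5 of AMPA and 11.2 to 27.1 of NMDA subunits, so no pair of ranges overlapped. Median Gria1 was 1.81 in first and 18.3 in second reactions, median Gria2 4.04 and 16.0, and median Grin3a 0.327 and 0.576. The 11 single reactions lay between and beyond, with 14.5% to 72.0% ribosome-poor cells and 9.15 to 54.9 of AMPA subunits. What the reactions held is not stated, so a kind of suspension and a mix of cells cannot be told apart.

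**Figure D4:**
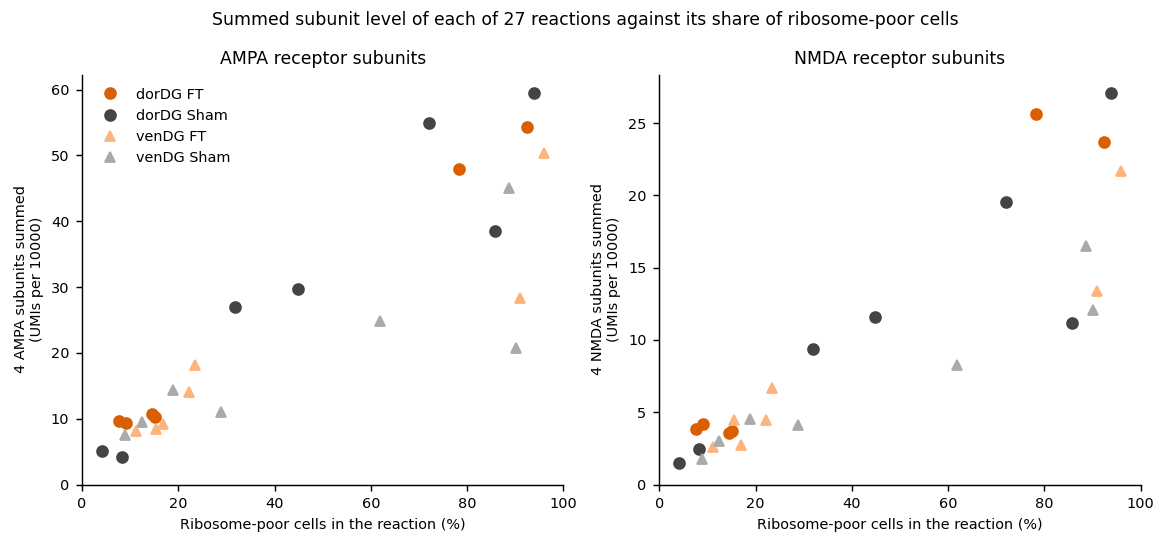
Summed level of the 4 AMPA (left) and 4 NMDA (right) subunits in each of the 27 reactions (vertical axes, UMIs per 10000) against the share of ribosome-poor cells in that reaction (horizontal axes, %). First reactions sit at 4.08% to 15.5% and at most 9.69 for AMPA subunits, and second reactions at 78.3% to 95.9% and at least 20.8.

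Fluoxetine was set against water first over all cells of a dorDG replicate. Gria1 stood at 4.46, 9.74, 2.94 and 2.81 UMIs per 10000 in the FT replicates and at 10.4, 6.41, 21.2, 9.04 and 12.6 in Sham. Gria2 stood at 7.71, 6.34, 5.56 and 5.46 in FT and at 12.8, 5.42, 23.7, 13.4 and 11.6 in Sham. Above every FT replicate lay 3 of the 5 Sham replicates for Gria1 and 4 for Gria2, with Sham 3 the highest and Sham 2 the lowest of its group. Grin1 had 4 such Sham replicates, at 1.38, 1.31, 0.471 and 0.582 in FT and 2.12, 0.501, 3.08, 2.02 and 2.46 in Sham. Gria4 stood at 1.42, 1.0, 1.06 and 0.908 in FT and at 3.96, 1.26, 3.85, 1.51 and 2.76 in Sham, where Sham 2 alone fell inside the FT range. Grin2a was 3.33, 3.60, 1.5 and 1.51 in FT and 5.77, 2.71, 7.46, 4.06 and 4.11 in Sham, and Grin2b 2.57, 3.13, 1.24 and 1.37 in FT and 4.83, 1.55, 7.97, 2.91 and 4.59 in Sham. No subunit separated the groups without overlap.

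In the edgeR fit over these sums, 7 of the 7 subunits tested fell past the thresholds in FT, and 16.1% of the 4274 genes tested were called lower as well. The log2 fold changes were -1.17 ± 0.33 for Gria4, -1.16 ± 0.40 for Gria1, -0.99 ± 0.41 for Grin1, -0.98 ± 0.33 for Gria2, -0.96 ± 0.40 for Grin2b, -0.86 ± 0.34 for Grin2a and -0.79 ± 0.37 for Gria3. Adjusted p by edgeR ran from 0.155 to 0.196, close under the threshold of 0.2. At an adjusted p of 0.05 or with the replicate number as a block 0 subunits were called, with no filter on low counts 1, and with DESeq2 all 7. Grin3a was too low to test, at 0.403, 0.237, 0.370 and 0.257 in FT and 0.678, 0.242, 1.02, 0.411 and 0.407 in Sham. The calls rested on single replicates: without FT 4, FT 5, Sham 1, Sham 3 or Sham 5 none of the 7 was called, without FT 1 there were 4, and without FT 2, Sham 2 or Sham 4 all 7.

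The groups also differed in the cells they held. The share of ribosome-poor cells in dorDG was 23.0% ± 13.0 (SD, n = 4) with FT and 51.2% ± 14.7 (n = 5) with water (two-sided exact permutation test p = 0.0317, adjusted over 3 such tests 0.0476), and the 3 neuronal types 16.6% ± 8.09 and 31.5% ± 8.37 (exact p = 0.0238, adjusted 0.0476). The 5 neuronal marker genes summed ranged from 6.02 to 10.3 UMIs per 10000 in FT and from 7.36 to 27.0 in Sham. With the ribosome-poor share as a covariate, a fit added after the data had been seen, 0 subunits were called. In the first reactions alone and in the second reactions alone, each with 2 replicates a group, 0 were called as well, and the direction turned to higher in FT for 6 subunits in the first (0.28 to 1.54) and 5 in the second (0.30 to 0.51). In the replicates with a single reaction, 2 FT against 3 Sham, all 7 were called, at -1.24 to -2.09, among 1010 genes called in either direction. In these replicates the share of ribosome-poor cells was 14.5% and 15.2% in FT 4 and 5, and 72.0%, 31.9% and 44.8% in Sham 3, 4 and 5. In sums over all cells, fewer cells of a type and less RNA per cell cannot be told apart.

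Within classes of cells no subunit passed the thresholds between FT and Sham in dorDG by edgeR. In ribosome-rich cells 0 of 3800 genes were called by edgeR (0%; 84 at an unadjusted p under 0.05; 0 by DESeq2), and the 6 subunits tested ran from -0.60 for Gria1 to 0.25 for Gria3. In ribosome-poor cells 0.525% of 4379 genes were called, and the 8 subunits lay between -0.74 ± 0.32 for Gria4 (adjusted p = 0.505 by edgeR) and -0.11. In the neuronal types summed 0% of 4384 genes were called by edgeR, with 532 at an unadjusted p under 0.05 and 306 by DESeq2, and the 8 subunits ranged from -0.71 ± 0.35 for Gria4 to -0.14. In the glial types summed, with 0% of 3828 genes called, 377 at an unadjusted p under 0.05 and 21 by DESeq2, Gria1 had the largest value, -1.08 ± 0.33 (unadjusted p = 0.00544, adjusted 0.497, by edgeR), and was the 1 subunit called by DESeq2, the other 5 tested being smaller in size. Every value in ribosome-poor, neuronal and glial sums was below 0, and none passed by edgeR.

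**Figure D5:**
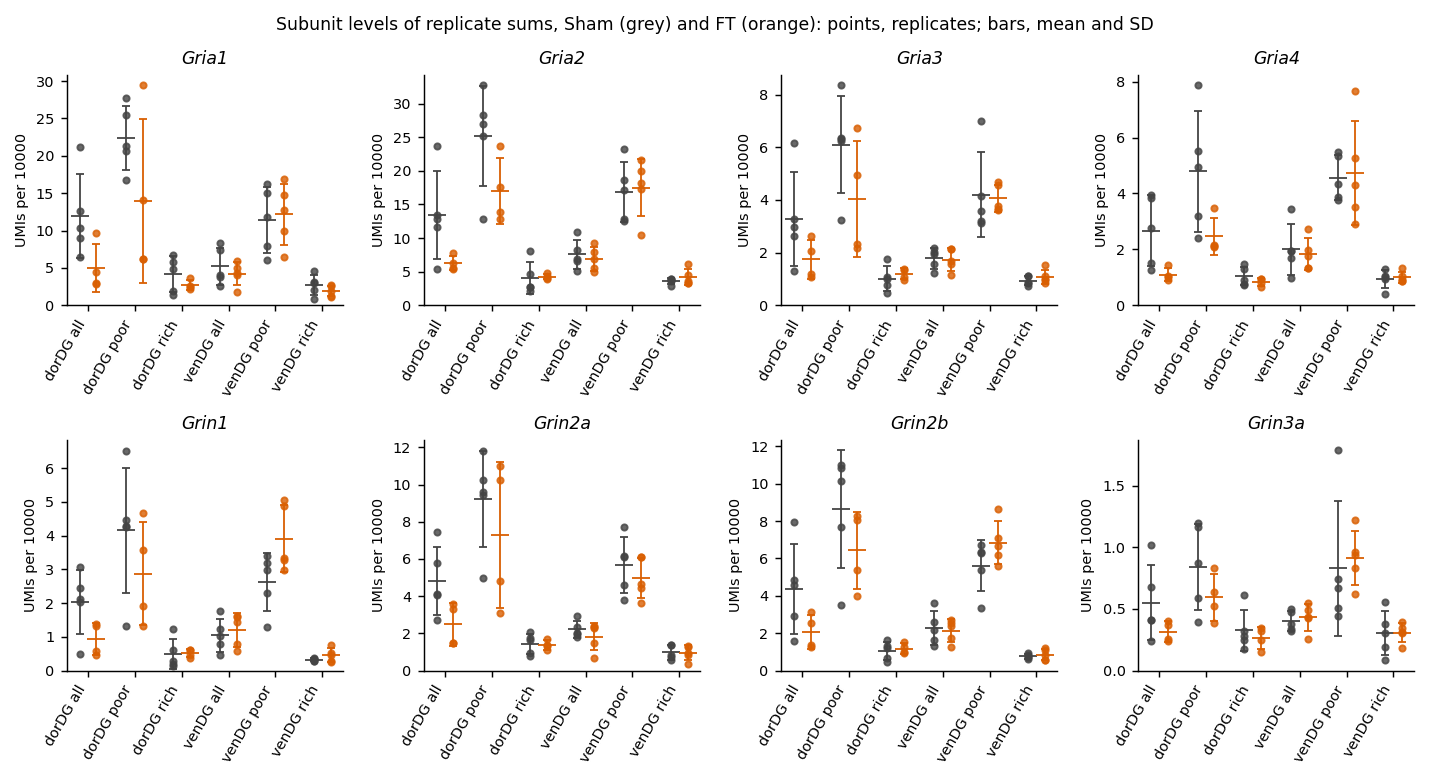
Level of each subunit (vertical axes, UMIs per 10000) in Sham (grey) and FT (orange) replicates of dorDG and venDG, for all cells, ribosome-poor cells and ribosome-rich cells, with bars for mean and SD. In all dorDG cells most Sham replicates lie above the FT replicates, while in ribosome-rich cells and in venDG the groups intermix.

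Single dorDG types gave no call for any subunit by edgeR, and DESeq2 called Gria1 in InhibNeuron and Gria1 and Gria2 in Oligodend1. The share of genes called was 0% in Endothelial, Granule, InhibNeuron, Microglia1, Mossy and OPC by edgeR, with 216, 333, 775, 76, 144 and 217 genes at an unadjusted p under 0.05 and 0, 0, 308, 0, 0 and 0 by DESeq2. Oligodend1 had 5.98% of its genes called, Microglia2 0.0581%, Oligodend2 0.029% and AstroSub1 0.0232%. BergGlia and ExcitNeuron had too few replicates to fit, and InhibNeuron was fitted with replicates of at least 1 cell. The fits within a type did not hold its share of ribosome-poor cells fixed, which was 50.9% in Oligodend1 over both groups. Of 80 pairs of a subunit and a fitted type, 7 had FT and Sham replicates that did not overlap, all 7 with FT lower. Over all genes tested, the share without overlap and with FT lower was 1.47% in Endothelial, 4.72% in Granule, 7.11% in InhibNeuron, 3.55% in OPC and 3.41% in Oligodend1, the types that held these pairs. In the types without such a pair it was 2.28% in AstroSub1, 0.358% in Microglia1, 0.988% in Microglia2, 3.11% in Mossy and 1.68% in Oligodend2. The 80 pairs include subunits too low to test in a type, whereas these shares cover tested genes alone.

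In OPC, Gria1 was 2.84, 3.17, 2.16 and 0.842 in FT and 5.40, 14.7 and 6.65 in Sham, a log2 fold change of -1.74 ± 0.42 (unadjusted p = 0.000184, adjusted 0.325, by edgeR). In Oligodend1, Gria2 was 1.40, 2.71, 1.64 and 2.45 in FT and 3.70, 3.49, 3.25, 3.14 and 3.98 in Sham (-0.72 ± 0.29, adjusted p = 0.25 by edgeR), and Gria3 was 0.288 to 0.625 in FT and 0.822 to 1.04 in Sham. Gria1 (-1.04 ± 0.40, adjusted p = 0.224 by edgeR) and Grin2a (-1.0 ± 0.41, 0.25) in Oligodend1 missed the threshold too. In Granule, Gria4 was 0.959 to 2.36 in FT and 2.42 to 26.1 in Sham, the upper end being Sham 1 alone (-1.77 ± 0.67, adjusted p = 0.55 by edgeR). In Endothelial cells, Gria3 was 0.275 to 0.560 in FT and 0.572 to 1.72 in Sham (-1.42 ± 0.48, adjusted p = 0.813 by edgeR). In InhibNeuron, Gria1 was 15.8, 14.8, 13.7 and 15.7 in FT, from 4 to 14 cells a replicate, and 23.3, 28.6, 18.2 and 29.9 in Sham, from 16 to 47 cells (-0.63 ± 0.24, adjusted p = 0.252 by edgeR), and Gria2 was 20.7 to 24.7 in FT and 25.6 to 36.8 in Sham. These 7 pairs were picked for their lack of overlap.

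In venDG no subunit differed past the thresholds between FT and Sham. Gria1 over all cells was 5.91, 4.04, 1.76, 4.25 and 5.02 in FT and 2.63, 7.37, 8.27, 4.05 and 3.76 in Sham, and Gria2 7.96, 5.59, 4.91, 6.85 and 9.19 in FT and 6.81, 8.27, 10.9, 6.61 and 5.12 in Sham. The groups intermixed in both. Of 4079 genes 0% were called by edgeR, with 237 at an unadjusted p under 0.05 and 22 by DESeq2, and the 7 subunits tested ran from -0.34 to 0.20. Ribosome-rich cells (0% of 3698 genes, 191 and 6) gave -0.50 to 0.20, and ribosome-poor cells (0% of 4496 genes, 249 and 1) gave -0.15 to 0.53, the last for Grin1 (± 0.26, adjusted p = 0.872 by edgeR). The share of ribosome-poor cells in venDG was 30.3% ± 13.8 with FT and 40.1% ± 16.7 with water (exact permutation p = 0.325).

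The difference of the FT effect between the regions was tested as an interaction over all cells, dorDG effect minus venDG effect. The 7 subunits tested were all below 0, among them Grin1 at -1.25 ± 0.58, Gria4 at -1.11 ± 0.47 (unadjusted p = 0.0273, adjusted 0.505, by edgeR) and Gria2 at -0.89 ± 0.42. None passed, and 0% of 4161 genes were called by edgeR, with 404 at an unadjusted p under 0.05 and 8 by DESeq2. Without dorDG Sham 2, 3 subunits were called. A block that ties dorDG and venDG replicates of the same number called 5 (Gria1, Gria2, Gria4, Grin1 and Grin2b, -0.91 to -1.40) and 385 genes. Both regions came from the same treatment groups of animals, and whether replicates of the same number share animals is not stated, so whether the FT effects of the regions differ was not settled here.

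Between the regions themselves, Grin2a was the 1 subunit called by edgeR, in ribosome-poor cells alone. Over all cells it was 0.77 ± 0.24 higher in dorDG on the log2 scale (unadjusted p = 0.00401, adjusted 0.456, by edgeR), and Gria1 was 0.72 ± 0.30 higher, but no subunit was called by edgeR, beside 0.192% of all genes, and DESeq2 called Grin2a. In ribosome-poor cells Grin2a ranged from 3.08 to 11.8 (median 9.61) in dorDG and from 3.62 to 7.73 (median 5.37) in venDG, a difference of 0.64 ± 0.20 (adjusted p = 0.173 by edgeR), the 1 call among the 8, beside 1.13% of genes called higher. The call was lost without any 1 of 13 of the 19 replicates: dorDG FT 1 or 2, dorDG Sham 1, 3, 4 or 5, venDG FT 2, 3, 4 or 5, or venDG Sham 1, 3 or 5, at differences of 0.53 to 0.65. The fit took the 19 sums as independent, although whether replicates of the same number share animals is not stated. With a block that ties dorDG and venDG replicates of the same number, 0 subunits were called in ribosome-poor cells. The other 7 subunits ran from -0.37 ± 0.22 for Gria4 to 0.59 ± 0.27 for Gria1 without the block. In ribosome-rich cells 0% of 3747 genes were called by edgeR, with 150 at an unadjusted p under 0.05 and 3 by DESeq2. The 6 subunits tested there ran from -0.10 to 0.55, and Grin2a, at 0.54 ± 0.24, was not the highest. Of the 6, 2 had an unadjusted p under 0.05 by edgeR.

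Other genes of glutamate receptors were read from 3 lists: 10 other ionotropic subunit genes, 14 AMPA receptor auxiliary genes and 32 genes of scaffolds and trafficking. In all dorDG cells with FT, where 16.1% of all genes were called lower, 2 of the 6 other subunits tested were called lower (Grik2, a kainate receptor subunit, -0.96 ± 0.27, and Grik5, -0.71 ± 0.28), as were 1 of 3 auxiliary genes (Shisa6, -1.04 ± 0.36) and 5 of 17 scaffold and trafficking genes (Neto1 -1.30 ± 0.41, Dlgap1 -1.09 ± 0.34, Dlg2 -1.06 ± 0.36, Adar -0.74 ± 0.23 and Nsf -0.60 ± 0.29). None was called higher. In Oligodend1, 105 of 3693 genes were called lower with FT and 116 higher. Of the lists, 1 of 3 (Grik2, -0.90 ± 0.29), 0 of 2 and 3 of 9 genes were called lower there. The 3 were Adar, an RNA editing enzyme (-1.57 ± 0.56), Dlg2 (-1.14 ± 0.32) and Dlgap1 (-0.91 ± 0.30). The share of ribosome-poor cells within Oligodend1 was not held fixed in this fit. In every other FT comparison with water, including venDG, none of the 3 lists gave a call.

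The same lists were read in ribosome-poor against other cells. In dorDG, where 46.2% of all genes were called higher, all 7 other subunits tested (Grik5, 1.74 ± 0.20), all 4 auxiliary genes (Cacng8, 2.15 ± 0.28, and Shisa6, 2.05 ± 0.29) and 13 of 17 scaffold and trafficking genes (Dlgap2, 2.52 ± 0.19) were called higher, and in venDG, against 42.9% of all genes, 6 of 6, 3 of 3 (Shisa6, 2.46 ± 0.18) and 13 of 17 (Dlgap2, 2.58 ± 0.22). Within the neuronal types summed, where 29.1% of all genes were called higher, the lists split: 11 of 18 scaffold and trafficking genes were higher and 4 lower, with Shank1, a scaffold of the postsynaptic density, at 1.62 ± 0.43 and Nrgn, a calmodulin-binding protein of dendrites, at -2.34 ± 0.35. Of the 7 auxiliary genes tested there, Shisa6 (1.01 ± 0.33) and Cacng3 (0.80 ± 0.36) were called higher. Cnih2, which traffics AMPA receptors, was called lower (-0.99 ± 0.44). The other ionotropic subunits gave 4 of 6 called higher and 0 lower. In the glial types summed, against 40.3% of all genes, 6 of 7 other subunits were higher, with Grin2c at 1.80 ± 0.31. Between the regions, Grik1 was the 1 gene of 8 other subunits called in ribosome-poor cells, lower in dorDG (-1.17 ± 0.24, adjusted p = 0.0215 by edgeR).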

How the data were processed

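The values analysed were raw UMI counts of 10x Genomics 3′ libraries (108 in the labels), deposited as 1 table per region with genes in rows and cells in columns. The authors made them with Cell Ranger 2.1.0 and filtered and annotated the cells with Seurat 3. The submitters' processing notes name the build rn5. The authors' annotation gave a type for each dorDG cell. Of 2228 venDG columns, 170 with a second, unexplained suffix on the reaction name were left out, 167 of which repeat a barcode of the same reaction. Authors' log-normalized values and comparisons were not used, and the filter of the study was not applied again.

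Reactions that share a region, a treatment and a replicate number in the labels were summed to 1 replicate, and p-values measure the spread between such pools. Counts were summed per replicate and class of cells over at least 5 cells (1 for InhibNeuron) and fitted with the edgeR 4.0.16 quasi-likelihood F-test in R 4.3.3 after TMM scaling, leaving out genes under 0.5 UMIs per 10000 on average, with Benjamini-Hochberg adjustment over all genes tested. SE is the log2 fold change divided by the root of F. Ribosome-poor against other cells was fitted with the replicate as a block, since both sums come from the same pool. Shares of cells were compared by exact permutation over replicates. Replicate pairs within groups differed beyond sampling noise (chi-square per degree of freedom 3.31 to 19.6 over 36 pairs). Depth was 220162 to 1523537 UMIs per replicate. Binomial intervals are exact, at 95%, and cover counting error only. The venDG cells were clustered with scanpy 1.11.5 (2000 variable genes, 30 components, 15 neighbours, Leiden resolution 2), and a cluster was named from at least 3 listed markers that were 2-fold above other cells and found in at least 10% of its cells. RefSeq promoters matched 3 of the 8 symbols.

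The 8 members were read in every comparison, but where a range is given only some are named. Genes of the receptor lists were drawn from all those called where a list gave at most 5 in a comparison. Otherwise they were drawn from the 3 with the smallest p, and not all of those drawn are named. The 3 genes most like each member were taken by Pearson's r of log2(UMIs per 10000 + 0.1). Members and lists were chosen with earlier results of these data known. On simulated data, 71% of 2-fold changes were recovered for FT against Sham in all dorDG cells (4274 genes) and 95% for ribosome-poor against other dorDG cells (4384 genes), with 18.4% and 12.8% of calls on unchanged genes. The simulation changed 200 genes on a common mean profile, with no difference in the mix of cells. These rates therefore do not cover such a difference, nor changes in most genes. Alternatives were DESeq2 1.42.0, no filter on low counts, a replicate block, an adjusted p of 0.05, other boundaries (1.5% and 3%), ribosomal and mitochondrial genes left out before scaling, and each replicate left out. Fits over pooled types, over first, second or single reactions and with the ribosome-poor share as a covariate were added after the data had been seen.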

Additional observations from a re-analysis of the deposited data

Results flagged for a closer look

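Among 96 sets of 4 or 5 replicates (8 subunits, in all, ribosome-poor and ribosome-rich cells of each group), 3 held a replicate far from the others by Dixon's test, where chance gives about 1 set in 20. In ribosome-poor venDG Sham cells, Gria3 stood at 7 UMIs per 10000 in replicate 4 and at no more than 4.13 in the others. In the same group Grin3a stood at 1.79 in replicate 5, the next being 0.747. In ribosome-poor dorDG FT cells, Gria4 stood at 3.46 in replicate 1, the next being 2.17. What set these replicates apart was not tested.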

How the results depend on the processing

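For the fall of the subunits in all dorDG cells with FT (7 of 7 called, 1221 genes), 0 were called at an adjusted p of 0.05 (0 genes), 1 with no filter on low counts (207 genes), 7 with DESeq2 (1849 genes), and 0 in first reactions (0 genes), in second reactions (3 genes) and with the ribosome-poor share as a covariate (0 genes). Leaving out a replicate gave 0 to 7. In the first reactions alone Gria1 (0.98), Gria2 (0.91), Gria3 (1.20), Gria4 (0.28), Grin2a (0.35) and Grin2b (1.54) turned to higher in FT, in the second reactions Gria1 (0.30), Gria3 (0.32), Grin1 (0.51), Grin2a (0.44) and Grin2b (0.38) did, and with the covariate Gria3 (0.0389) and Grin2b (0.0351). The cause was not tested.

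The replicate numbers did not meet the rule for pairing, a correlation above 0.1 in every pair. FT and Sham of the same number correlated at -0.212 to 0.366 in dorDG (1 of 4 best with its own number) and -0.151 to 0.267 in venDG (3 of 5). For dorDG with venDG the correlation was 0.0946 to 0.547 (7 of 9), and 8 of the 9 pairs were above 0.1. With a replicate block, 0 subunits were called in all dorDG cells (0 genes), 3 in InhibNeuron (953 genes), 2 in Oligodend1, 5 in the interaction (385 genes) and 0 between regions in ribosome-poor cells.

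DESeq2 called 1 subunit in InhibNeuron (308 genes), 2 in Oligodend1, 1 in the glial types summed (21 genes) and 1 between regions over all cells (45 genes against 8). With replicates left out, called subunits ran from 0 to 1 in ribosome-poor dorDG cells and in the neuronal types summed, from 0 to 3 in InhibNeuron, Oligodend1 and the interaction, and from 0 to 1 between regions in ribosome-poor cells, where an adjusted p of 0.05, no filter, and boundaries of 1.5% and 3% each gave 0. For ribosome-poor against other cells, AstroSub1 ran from 0 to 6 with replicates left out, with 1 at an adjusted p of 0.05, 3 with DESeq2, 1 with no filter, 1 with the boundary at 1.5% and 3 with it at 3%, and the neuronal types summed gave 3 at an adjusted p of 0.05 and 2 to 6 with replicates left out. In ribosome-poor cells alone the log2 ratio of neuronal to glial sums was 1.40 for Gria1, 0.80 for Gria2, 0.73 for Gria3, 1.02 for Gria4, 1.82 for Grin1, 1.16 for Grin2a, 1.29 for Grin2b and, turned, -0.39 for Grin3a.

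Counts over all genes moved by over 1.5 times elsewhere too: 23 in ribosome-poor dorDG cells became 61 with DESeq2 and 121 with no filter, 221 in Oligodend1 became 41 with no filter, 0 in the neuronal types summed became 306 with DESeq2 and 404 with no filter, and 105 between regions in ribosome-poor cells became 19 at an adjusted p of 0.05. For ribosome-poor against other dorDG cells, 3768 became 9916 with no filter.

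Among values that were not called, in venDG Gria1 turned to 0.24 in second reactions and Grin1 to -0.0499 in single reactions, and with replicates left out Grin2a ran from -0.33 to 0.13 in ribosome-poor dorDG cells (above 0 without FT 5) and from -0.35 to 0.0141 in the neuronal types summed (above 0 without Sham 1). Over every subunit tested in every comparison, 112 of 3129 values under alternatives changed direction, 13 of them of called subunits. Grin3a, under 1 UMI per 10000 in most sums, is limited by depth.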

Other observations

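Of the venDG columns left out for their second suffix, 167 repeat a barcode of the same reaction. These 167 held higher levels of all 8 subunits than the kept columns of the same barcodes. Gria1 stood at 13.8 UMIs per 10000 in them and at 10.9 in the kept columns of the same barcodes, Gria2 at 12.7 and 9.81, Grin2a at 6.28 and 4.72, and Grin1 at 3.02 and 2.84. The count was identical in 91 of the 167 for Gria1, 95 for Gria2 and 143 for Grin1.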
